A study of Mus musculus with 57 samples.

Results

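The ligands of the epidermal growth factor (EGF) family and their ErbB receptors were followed through the distal colon of 57 mouse samples. The family was set by name as 10 genes, the ligands Areg, Ereg, Hbegf, Btc, Tgfa, Egf and Nrg1 and the receptors Egfr, Erbb2 and Erbb3. A member was measured where the platform's probe table gives a probe set its symbol alone, and the brightest such probe set stood for the gene. This held for 9 of the 10 members, among 22180 genes measured in all, and Areg was unnamed here.

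EGF family ligands are made as membrane-anchored precursors, and metalloproteases such as Adam17 and Adam10 cut them free. Ereg, Hbegf, Btc, Tgfa and Egf bind Egfr, and Hbegf, Btc and Ereg can also act through Erbb4, while Nrg1 binds Erbb3 or Erbb4. Bound receptors pair with each other, Erbb2, which has no known ligand of its own, being the favoured partner, and the pair drives the Ras-ERK and PI3K-Akt pathways. In the colon the family is known for its part in crypt cell division, in repair of the epithelium after injury and in tumor growth.

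All mice were female C57BL/6 adults of 18 to 24 weeks. INSRfl/fl mice, called fl/fl here, carry Insr, the gene of the insulin receptor, between loxP sites that Cre can recombine. Their villin-CRE-INSR-/- littermates, called knockout here, also carry Cre recombinase under villin, so that Insr is lost from the intestinal epithelium and not from the other cells of the sample. Untreated colon came from 10 fl/fl and 10 knockout mice. Treated mice received 7.4 mg/kg of azoxymethane (AOM), a colon carcinogen, by intraperitoneal injection, and in week 2 a 7-day course of 3% dextran sulfate sodium (DSS), which injures the colon epithelium. Tissue was taken in week 5, as colon after AOM+DSS (10 fl/fl and 10 knockout samples) or as tumor (8 fl/fl and 9 knockout samples). The labels call the samples biological replicates and do not tie tumors to colon samples, so some may share a mouse.

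Values are log2 levels from robust multi-array averaging (RMA), on which a difference of 1 is a 2-fold change, and they have no true zero. A level says nothing about how much more abundant one gene is than another, since each probe set has its own response. Array medians lay between 5.923 and 6.039. Insr averaged 8.04 in untreated knockout and 8.98 in untreated fl/fl colon, 7.74 and 8.58 after AOM+DSS, and 7.53 and 8.18 in tumors, and 2 of 9 knockout tumors exceeded the lowest value among fl/fl tumors, the higher of them being replicate 8 at 8.35. Leaving out that tumor left the counts of members that changed in tumors at 5 and 8, as given below. The 10 epithelial markers averaged between 11.52 and 11.72 in the 6 groups, lowest in tumors (11.62 in fl/fl and 11.52 in knockout mice). The means of 9 smooth muscle markers were 11.39 and 11.41 in untreated fl/fl and knockout colon, 11.40 and 11.23 after AOM+DSS, and 9.73 and 9.60 in tumors. Those of 8 fibroblast markers were 10.11 and 10.14, 10.59 and 10.85, and 10.26 and 10.23 in the same order. For 8 neutrophil markers they were 6.09 and 6.03, 7.38 and 7.91, and 7.93 and 8.30, and for 11 markers of squamous epithelium, the lining of the anal canal, 6.29 and 6.34, 8.17 and 8.11, and 6.86 and 6.54.

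After AOM+DSS, 4 of the 9 measured members were higher and 1 was lower in fl/fl colon at an adjusted p under 0.05, and 4 were higher and 3 lower in knockout colon. Over all genes 22.7% passed in fl/fl colon (12.2% higher and 10.5% lower) and 30.2% in knockout colon (16% and 14.2%). In fl/fl colon the median change of the members was 0.33 and that of all genes -0.039. In tumors against untreated colon, 6 members were higher and 3 lower in fl/fl mice, and 5 were higher and 3 lower in knockout mice, where 45.4% (22.9% higher and 22.5% lower) and 47.3% (23.6% and 23.7%) of all genes passed. The members' median changes were 0.53 and 0.38 against -0.034 and -0.035 over all genes. Nrg1, Ereg, Btc, Tgfa and Egfr rose and Egf, Erbb2 and Erbb3 fell in tumors of both genotypes. Comparisons against the same untreated or AOM+DSS samples share those samples. In bulk tissue, fewer cells of a type and less RNA per cell cannot be told apart.

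**Figure D1:**
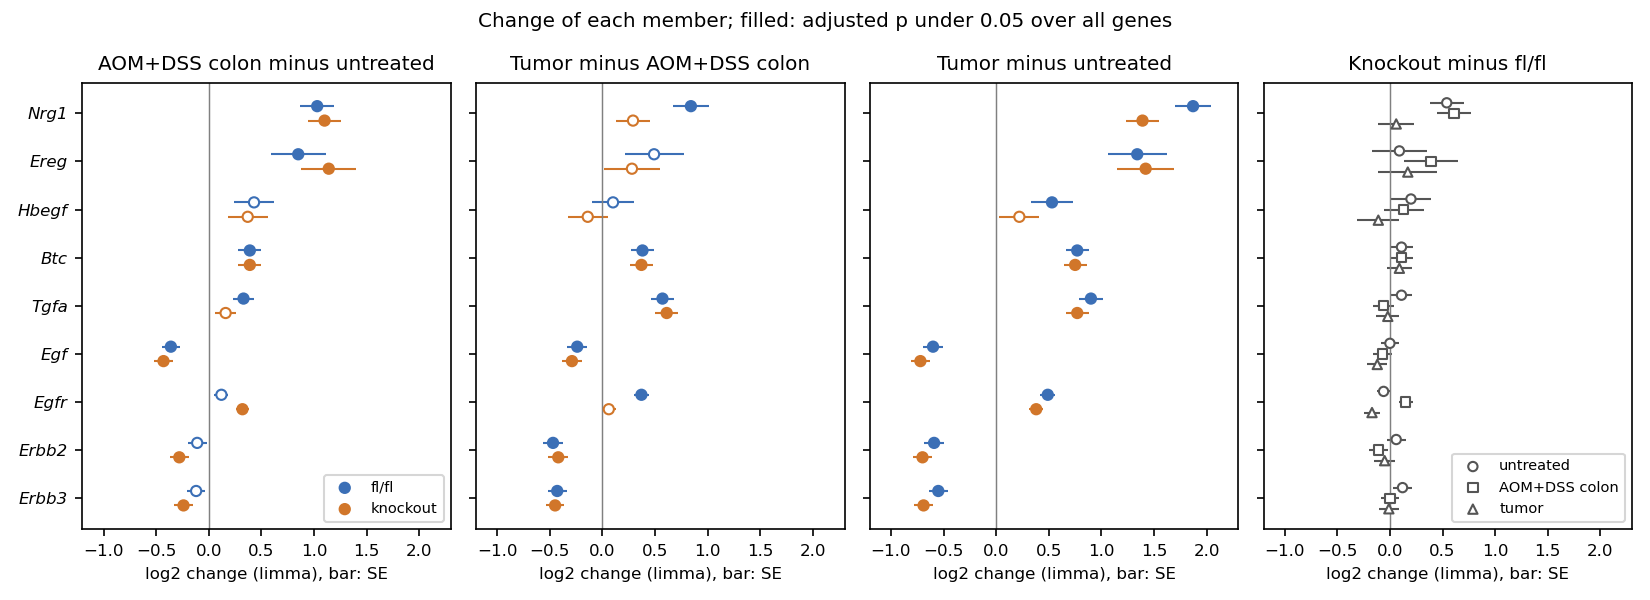
Log2 change of each member (x axis) with its SE from limma, filled where the adjusted p over all genes was under 0.05, for AOM+DSS colon minus untreated, tumor minus AOM+DSS colon and tumor minus untreated in each genotype, and for knockout minus fl/fl in each condition. Nrg1 lies farthest right in fl/fl tumors at 1.87, Egf, Erbb2 and Erbb3 lie left of 0 in tumors, and no point of the genotype panel is filled.

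Nrg1, the neuregulin ligand of Erbb3, showed the largest change among the members in fl/fl colon after AOM+DSS and in fl/fl tumors. In untreated fl/fl colon its lowest, median and highest values were 7.22, 7.80 and 7.99, after AOM+DSS 7.74, 8.73 and 9.90, and in tumors 8.92, 9.64 and 10.15. All tumors thus lay above all untreated samples, as 8.98% of all genes did, while the AOM+DSS colon samples reached from the untreated range into that of the tumors. The rise was 1.03 ± 0.16 (SE) after AOM+DSS, or 2.04-fold (adjusted p = 2.33e-06), and 1.87 ± 0.17, or 3.67-fold, from untreated colon to tumor (adjusted p = 2.32e-14). Tumors exceeded AOM+DSS colon by 0.84 ± 0.17 (adjusted p = 3.22e-05). The comparison of tumors with AOM+DSS colon had 7 members past the threshold in fl/fl mice, 4 higher and 3 lower, where 41.2% of all genes passed (21% higher and 20.2% lower).

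In knockout mice Nrg1 started from 7.94, 8.23 and 8.69 (lowest, median and highest) in untreated colon, reached 8.93, 9.48 and 10.02 after AOM+DSS, and stood at 9.15, 9.78 and 10.03 in tumors. Every AOM+DSS colon sample and every tumor lay above every untreated sample. Of all genes, 3.68% separated AOM+DSS from untreated colon upward and 1.06% downward. For tumors against untreated colon, 10% of all genes separated upward and 7.95% downward. The AOM+DSS and tumor ranges of Nrg1 overlapped almost wholly. The rise after AOM+DSS was 1.10 ± 0.16, or 2.14-fold (adjusted p = 1.9e-07), and that from untreated colon to tumor was 1.39 ± 0.16, or 2.61-fold (adjusted p = 1.25e-10). From AOM+DSS colon to tumor the difference was 0.29 ± 0.16 (95% interval -0.04 to 0.61, adjusted p = 0.161), and it passed with array weights, at 0.36 ± 0.15 (adjusted p = 0.0498), and with the fibroblast marker mean as a covariate, at 0.74 ± 0.21 (adjusted p = 0.00545), but stood at -0.11 ± 0.33 with the smooth muscle mean (adjusted p = 0.903). The response to AOM+DSS differed between genotypes by 0.07 ± 0.22 (adjusted p = 0.976). For the step from AOM+DSS colon to tumor, the knockout minus fl/fl difference was -0.56 ± 0.23. It did not pass, with p = 0.0214 before and adjusted p = 0.674 after adjustment over all genes in limma. Ordered by mean, the groups ran from untreated fl/fl (7.74 ± 0.23, SD) through untreated knockout (8.29 ± 0.22), AOM+DSS fl/fl (8.78 ± 0.58), AOM+DSS knockout (9.39 ± 0.33) and fl/fl tumor (9.62 ± 0.39) to knockout tumor (9.67 ± 0.34). Of these neighbours only untreated knockout and AOM+DSS fl/fl differed past the threshold, by 0.49 ± 0.16 (adjusted p = 0.0235).

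Ereg, epiregulin, a ligand of Egfr and Erbb4, also rose in both genotypes. Its lowest, median and highest values in fl/fl mice were 7.58, 8.07 and 8.33 in untreated colon, 8.13, 8.97 and 9.53 after AOM+DSS and 7.65, 9.24 and 10.95 in tumors. In knockout mice they were 7.35, 8.12 and 8.96, 8.07, 9.24 and 10.67, and 8.51, 9.69 and 10.68 in the same order. The groups overlapped in every comparison, and fl/fl tumors were the most spread group (SD 1.0, n = 8), with replicate 3 the lowest and replicate 5 the highest. After AOM+DSS the rise was 0.85 ± 0.26, or 1.80-fold, in fl/fl (adjusted p = 0.0143) and 1.14 ± 0.26, or 2.21-fold, in knockout colon (adjusted p = 0.000447). Tumors exceeded untreated colon by 1.34 ± 0.28, or 2.53-fold, in fl/fl mice (adjusted p = 4.67e-05) and by 1.42 ± 0.27, or 2.68-fold, in knockout mice (adjusted p = 9.36e-06). Between tumors and AOM+DSS colon the difference was 0.49 ± 0.28 in fl/fl (adjusted p = 0.159) and 0.28 ± 0.27 in knockout mice (adjusted p = 0.456). Without fl/fl tumor replicate 3 the fl/fl difference was 0.74 (adjusted p = 0.0181). A second, dimmer Ereg probe set had group means between 6.36 and 6.79, lowest in untreated fl/fl colon.

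Hbegf, heparin-binding EGF-like growth factor, was the ligand with the fewest differences past the threshold. Over the 6 groups its samples ran from 7.17 to 9.34, with group means between 8.06 in untreated fl/fl and 8.62 in AOM+DSS knockout colon and SDs between 0.32 and 0.55, and the groups overlapped in every comparison. Only the fl/fl tumors differed from untreated colon past the threshold, by 0.53 ± 0.20 (adjusted p = 0.0236), and this call was lost without fl/fl tumor replicate 4 or untreated fl/fl replicate 7 or 10 (highest adjusted p = 0.0769). In knockout tumors the difference was 0.22 ± 0.19 (95% interval -0.16 to 0.61). After AOM+DSS it was 0.43 ± 0.19 in fl/fl (adjusted p = 0.087) and 0.37 ± 0.19 in knockout colon (adjusted p = 0.138). The fl/fl value passed without untreated fl/fl replicate 2 or 4 or AOM+DSS fl/fl replicate 5 (lowest adjusted p = 0.0457). No neighbours in the order of the 6 means differed past the threshold.

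**Figure D2:**
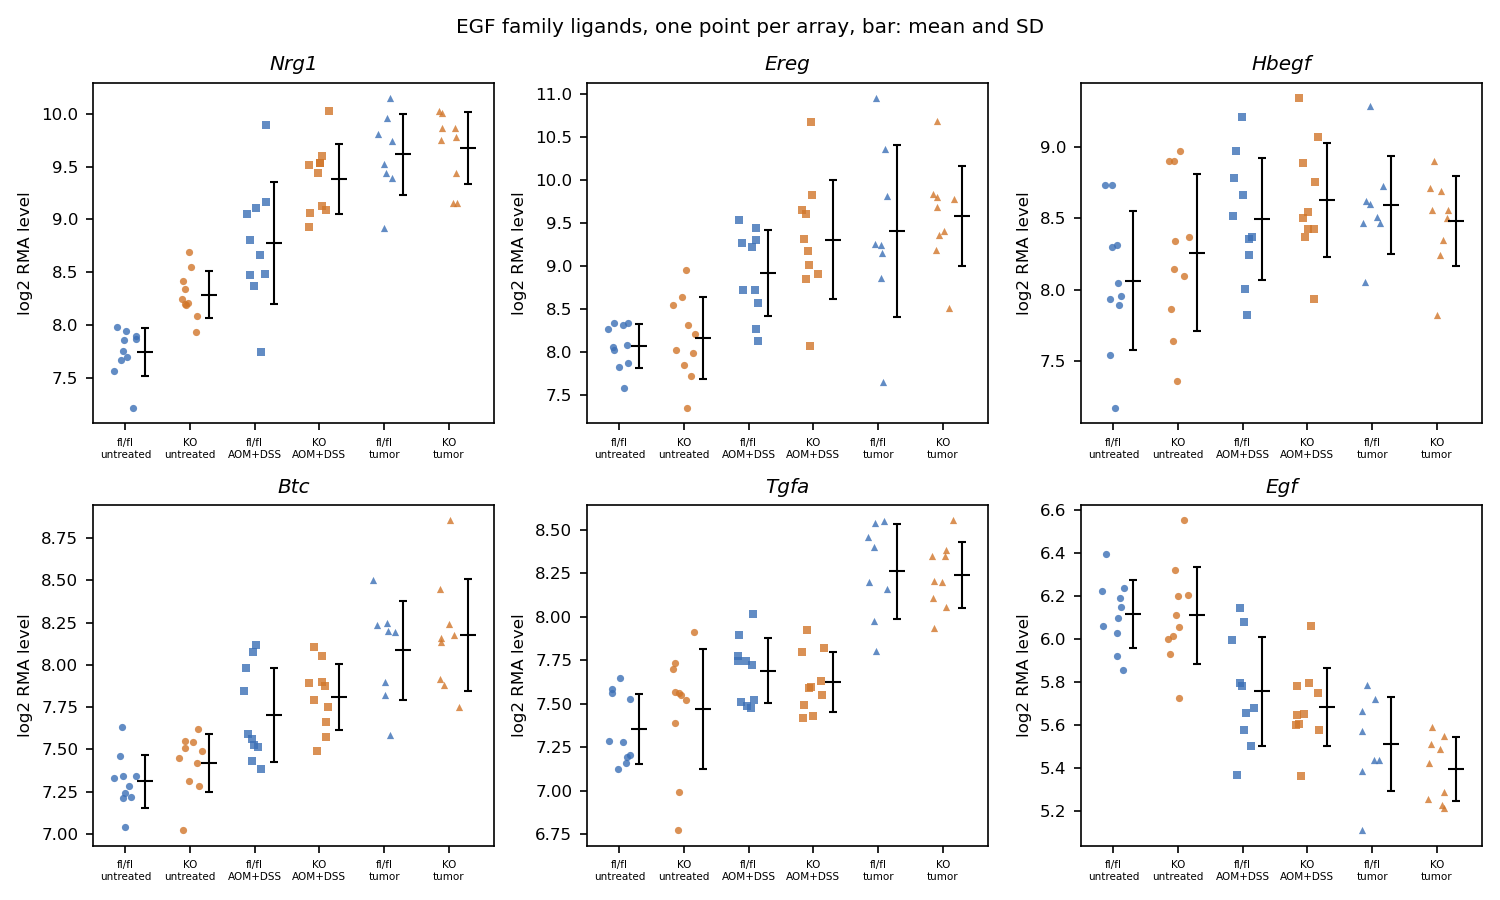
Log2 RMA level (y axis) of the 6 measured ligands in each of the 6 groups, 1 point per array, with the mean and SD beside the points. Nrg1, Ereg, Btc and Tgfa climb from untreated colon to tumor, Egf declines from 6.12 to 5.51 in fl/fl mice, and Hbegf overlaps throughout.

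Btc, betacellulin, which binds Egfr and Erbb4, rose at both steps in both genotypes. Its lowest, median and highest values in fl/fl mice were 7.04, 7.31 and 7.63 in untreated colon, 7.38, 7.58 and 8.12 after AOM+DSS and 7.59, 8.20 and 8.50 in tumors. In knockout mice they were 7.02, 7.47 and 7.62, 7.49, 7.83 and 8.10, and 7.75, 8.16 and 8.85 in the same order. All knockout tumors lay above all untreated knockout samples, as did 10% of all genes, whereas 1 fl/fl tumor (replicate 3, 7.59) lay below the highest untreated fl/fl sample. The changes after AOM+DSS were 0.39 ± 0.11 in fl/fl (adjusted p = 0.00504) and 0.39 ± 0.11 in knockout colon (adjusted p = 0.0032). From AOM+DSS colon to tumor Btc rose by 0.38 ± 0.11 (adjusted p = 0.00431) and 0.37 ± 0.11 (adjusted p = 0.00457). In this step 5 members passed in knockout mice, Btc and Tgfa higher and Egf, Erbb2 and Erbb3 lower, where 42.9% of all genes passed (21.5% higher and 21.4% lower).

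Tgfa, transforming growth factor alpha, an Egfr ligand, differed chiefly between tumors and colon. Its lowest, median and highest values in untreated and AOM+DSS colon were 7.13, 7.28 and 7.65 and then 7.47, 7.73 and 8.02 in fl/fl mice, and 6.77, 7.55 and 7.91 and then 7.42, 7.60 and 7.92 in knockout mice. In tumors they were 7.81, 8.30 and 8.55 (fl/fl) and 7.94, 8.20 and 8.55 (knockout). All tumors lay above all untreated colon of their genotype, as did 8.98% of all genes in fl/fl and 10% in knockout mice. All knockout tumors also lay above all AOM+DSS knockout colon, as did 7.46% of all genes, with 7.24% lying below. Tumors exceeded AOM+DSS colon by 0.57 ± 0.11, or 1.49-fold, in fl/fl (adjusted p = 1.47e-05) and by 0.61 ± 0.11, or 1.53-fold, in knockout mice (adjusted p = 2.07e-06). After AOM+DSS Tgfa rose by 0.33 ± 0.10 in fl/fl colon (adjusted p = 0.0148), and the difference in knockout colon was 0.16 ± 0.10 (adjusted p = 0.274). The difference between these responses was -0.18 ± 0.15 (adjusted p = 0.879).

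Egf itself was the only one of the 6 measured ligand members that fell. Its lowest, median and highest values in fl/fl mice were 5.86, 6.12 and 6.40 in untreated colon, 5.36, 5.73 and 6.15 after AOM+DSS and 5.11, 5.50 and 5.79 in tumors. In knockout mice they were 5.73, 6.08 and 6.55, 5.36, 5.65 and 6.06, and 5.21, 5.42 and 5.59. All tumors lay below all untreated colon of their genotype, as did 8.26% of all genes in fl/fl and 7.95% in knockout mice. The probe set was dim, with a mean of 5.78 over all arrays, and it was left out by the alternative filter on dim genes. A second, dimmer probe set named for Egf and 6330410L21Rik was not used. Its means in untreated colon, AOM+DSS colon and tumors were 4.55, 4.42 and 4.47 in fl/fl mice. In knockout mice they were 4.51, 4.38 and 4.31. After AOM+DSS Egf fell by 0.36 ± 0.089 in fl/fl (adjusted p = 0.00228) and by 0.43 ± 0.089 in knockout colon (adjusted p = 0.000128). From untreated colon to tumor it fell by 0.60 ± 0.095 (adjusted p = 2.5e-07) and by 0.72 ± 0.092 (adjusted p = 1.3e-09). From AOM+DSS colon to tumor the changes were -0.24 ± 0.095 in fl/fl (adjusted p = 0.0327) and -0.29 ± 0.092 in knockout mice (adjusted p = 0.00764). The fl/fl call was lost without any of 7 single arrays (AOM+DSS fl/fl replicates 1, 5 and 6 and fl/fl tumors 3, 4, 7 and 8, highest adjusted p = 0.118) and when the 2 groups were fitted alone (adjusted p = 0.0814).

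Among the receptors, Egfr rose in tumors while Erbb2 and Erbb3 fell. The promoters of Btc, Tgfa, Egfr and Erbb2, which RefSeq gives for assembly GRCm38.p6, are shown as those of members that rose (Btc, Tgfa and Egfr) or fell (Erbb2) in tumors of both genotypes. RefSeq promoters matched 6 of the 10 members by symbol. No run is shown for the other matched members, Egf, which also fell, and Areg, which was not measured. Each run covers the 250 bases before the start of transcription, 5′ to 3′ on the gene's strand, which is the minus strand for Btc and the plus strand for the others, and capitals mark a GC box, GGGCGG on either strand (CCGCCC where it lies on the other).
Btc, chr5:91402995-91403244: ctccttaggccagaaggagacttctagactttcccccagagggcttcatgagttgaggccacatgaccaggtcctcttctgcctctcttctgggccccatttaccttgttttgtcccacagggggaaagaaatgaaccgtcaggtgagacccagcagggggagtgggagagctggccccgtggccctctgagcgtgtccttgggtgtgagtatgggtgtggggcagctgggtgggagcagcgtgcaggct
Tgfa, chr6:86194972-86195221: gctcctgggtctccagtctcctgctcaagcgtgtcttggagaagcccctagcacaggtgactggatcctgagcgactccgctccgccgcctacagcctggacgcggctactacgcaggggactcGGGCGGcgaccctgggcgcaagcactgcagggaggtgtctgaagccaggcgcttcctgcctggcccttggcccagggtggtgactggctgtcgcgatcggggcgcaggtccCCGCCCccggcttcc
Egfr, chr11:16751953-16752202: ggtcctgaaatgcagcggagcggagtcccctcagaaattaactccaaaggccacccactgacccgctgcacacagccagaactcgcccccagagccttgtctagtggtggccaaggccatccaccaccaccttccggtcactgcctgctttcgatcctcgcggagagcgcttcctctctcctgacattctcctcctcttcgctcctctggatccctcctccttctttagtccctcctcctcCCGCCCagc
Erbb2, chr11:98412234-98412483: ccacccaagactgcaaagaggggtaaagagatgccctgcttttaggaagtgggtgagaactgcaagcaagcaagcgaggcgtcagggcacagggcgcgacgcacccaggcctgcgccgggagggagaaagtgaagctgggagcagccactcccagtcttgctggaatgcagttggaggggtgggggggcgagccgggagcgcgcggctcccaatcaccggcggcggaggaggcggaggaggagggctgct
Tgfa held 2 GC boxes, Egfr held 1 and Btc and Erbb2 none, so that members that rose were found with and without one. The share of GC bases was 59.6% for Btc, 69.2% for Tgfa, 60.8% for Egfr and 66.0% for Erbb2, against a median of 52.4% over 32851 promoter entries, 32.7% of which held a GC box. None of the 4 held the AP-1 motif TGANTCA (6.75% of entries), the CRE motif TGACGTCA (1.55%), the TATA box TATAAA (12.4%) or the TCF/LEF motif CTTTGAT (3.21%) on either strand. Of the matched members not shown, Areg held 1 CRE motif, 1 GC box and 1 TATA box, and neither entry of Egf held any of these motifs. These windows say which letters are present and nothing about binding.

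Egfr, the receptor of the EGF-type ligands, had lowest, median and highest values of 8.89, 9.44 and 9.55 in untreated fl/fl colon, 9.40, 9.48 and 9.71 after AOM+DSS and 9.61, 9.85 and 10.18 in fl/fl tumors. All fl/fl tumors lay above all untreated fl/fl colon, as 8.98% of all genes did. In knockout mice the values were 9.12, 9.33 and 9.55, 9.45, 9.64 and 9.86, and 9.47, 9.70 and 9.90, and here the tumors overlapped both colon groups. Egfr rose by 0.32 ± 0.066 after AOM+DSS in knockout colon (adjusted p = 0.000113), and in fl/fl colon the difference was 0.12 ± 0.066 (adjusted p = 0.194). From AOM+DSS colon to tumor it rose by 0.37 ± 0.07 in fl/fl mice (adjusted p = 1.08e-05), and in knockout mice the difference was 0.06 ± 0.068 (95% interval -0.07 to 0.20, adjusted p = 0.507). The differences between genotypes in these responses were 0.20 ± 0.094 for AOM+DSS (p = 0.0343, adjusted p = 0.804) and -0.31 ± 0.098 for the step to tumor (p = 0.00238, adjusted p = 0.482), neither of which passed in limma over all genes. Over the whole course from untreated colon to tumor Egfr rose by 0.49 ± 0.07, or 1.41-fold (adjusted p = 2.66e-08), in fl/fl and by 0.38 ± 0.068, or 1.31-fold (adjusted p = 2.76e-06), in knockout mice.

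**Figure D3:**
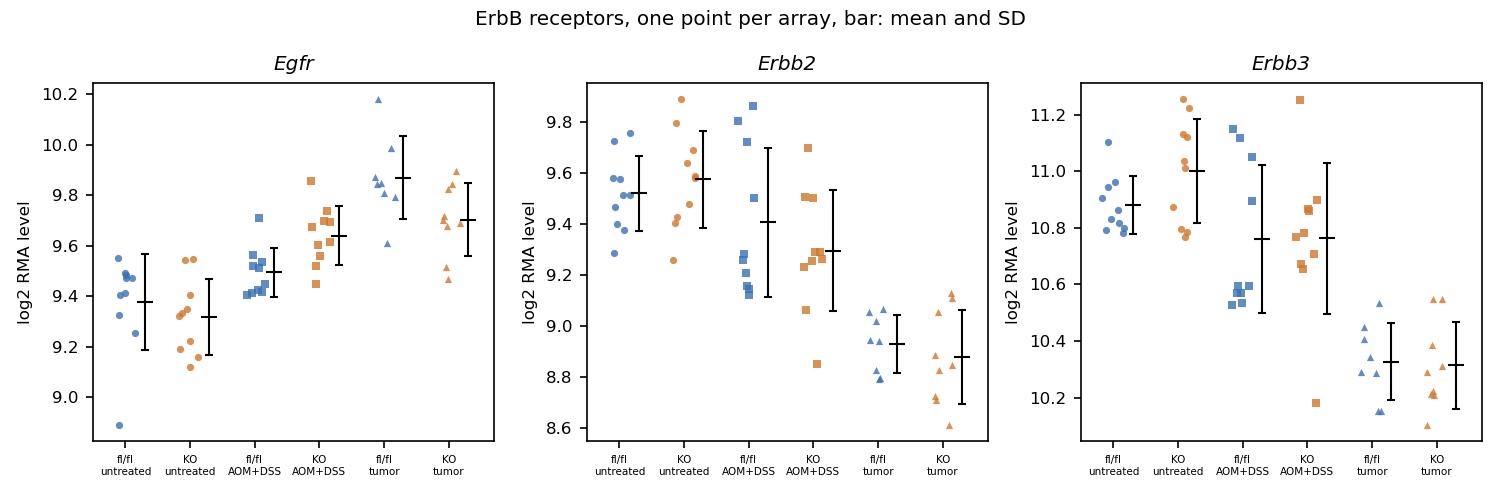
Log2 RMA level (y axis) of the 3 receptors in each of the 6 groups, 1 point per array, with the mean and SD beside the points. Egfr is highest in fl/fl tumors (mean 9.87), and Erbb2 and Erbb3 are lowest in tumors, with wide spread after AOM+DSS.

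Erbb2, the receptor that serves as partner of the others, had lowest, median and highest values of 9.28, 9.51 and 9.76 in untreated fl/fl colon, 9.12, 9.27 and 9.86 after AOM+DSS and 8.79, 8.94 and 9.07 in fl/fl tumors. Every fl/fl tumor lay below every fl/fl colon sample, untreated or treated, as did 8.26% and 6.38% of all genes, with 5.61% lying above AOM+DSS colon without overlap. In knockout mice the values were 9.26, 9.58 and 9.89, 8.85, 9.28 and 9.70, and 8.61, 8.85 and 9.13. Knockout tumors lay below all untreated knockout colon, as did 7.95% of all genes, and overlapped AOM+DSS colon. From AOM+DSS colon to tumor Erbb2 fell by 0.47 ± 0.096 in fl/fl (adjusted p = 4.02e-05) and by 0.42 ± 0.093 in knockout mice (adjusted p = 0.000165). After AOM+DSS it fell by 0.28 ± 0.091 in knockout colon (adjusted p = 0.0139), and in fl/fl colon the difference was -0.11 ± 0.091 (adjusted p = 0.379).

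Erbb3, the receptor of Nrg1, moved like Erbb2. Its lowest, median and highest values were 10.78, 10.85 and 11.11 in untreated fl/fl colon, 10.53, 10.59 and 11.15 after AOM+DSS and 10.15, 10.32 and 10.53 in fl/fl tumors, and 10.77, 11.02 and 11.26, 10.18, 10.77 and 11.25, and 10.11, 10.29 and 10.55 in knockout mice. Tumors of both genotypes lay below all untreated colon, as did 8.26% of all genes in fl/fl and 7.95% in knockout mice, and overlapped AOM+DSS colon. From AOM+DSS colon to tumor Erbb3 fell by 0.43 ± 0.092 in fl/fl (adjusted p = 8.76e-05) and by 0.45 ± 0.089 in knockout mice (adjusted p = 2.82e-05). From untreated colon to tumor it fell by 0.55 ± 0.092 and by 0.69 ± 0.089, or 1.47-fold and 1.61-fold (adjusted p = 9.55e-07 and 2.33e-09). After AOM+DSS it fell by 0.24 ± 0.087 in knockout colon (adjusted p = 0.0314), a call lost without any of 6 single arrays (untreated knockout replicates 1, 3, 4 and 10 and AOM+DSS knockout replicates 6 and 7, highest adjusted p = 0.114) and when the 2 groups were fitted alone (adjusted p = 0.0688). In fl/fl colon the difference was -0.12 ± 0.087 (adjusted p = 0.33).

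Several marker lists differed between the same groups as the members. In tumors all 9 smooth muscle markers were lower than in either kind of colon in both genotypes, with median changes from untreated colon of -1.66 in fl/fl and -1.86 in knockout mice. Of 7 markers of the distal colon surface 6 and 7 were lower (medians -3.90 and -3.57), all 4 Paneth-type markers and all 8 Wnt targets were higher (medians 4.74 and 4.20, 2.96 and 2.98), as were all 8 macrophage markers (0.84 and 0.66) and 5 of 6 mast cell markers (1.90 and 2.05). Of 10 epithelial markers 5 were lower and 1 higher in fl/fl tumors, and 6 were lower and 2 higher in knockout tumors (medians -0.15 and -0.26). Over all genes 22.5% and 23.7% were lower. Fibroblast and squamous means lay lower in tumors than in AOM+DSS colon. With the smooth muscle mean as a covariate, the members past the threshold between tumor and AOM+DSS colon went from 7 to 0 in fl/fl and from 5 to 0 in knockout mice. Between tumor and untreated colon they went from 9 to 4 (Tgfa, Egf, Nrg1 and Egfr) and from 8 to 1 (Egf). Over all genes the count went from 9143 to 966 higher and 935 lower in fl/fl and from 9511 to 949 and 1044 in knockout mice for tumor against AOM+DSS colon. Some lost calls kept their size with a larger SE, as Egfr in fl/fl mice at 0.36 ± 0.14 (adjusted p = 0.122) and Egf at -0.37 ± 0.19 in fl/fl and -0.41 ± 0.19 in knockout mice (adjusted p = 0.286 and 0.186), while others shrank. With this covariate the Nrg1 change from untreated colon to tumor was 0.94 ± 0.36 in knockout mice (adjusted p = 0.0831), and that of Erbb2 from AOM+DSS colon to tumor -0.20 ± 0.19 in fl/fl mice (adjusted p = 0.639). Of 8 fibroblast markers 7 were higher after AOM+DSS in fl/fl and 8 in knockout colon, and with their mean in the model (an alternative added once the data had been seen) the members past the threshold went from 5 to 1 (Nrg1, 0.68 ± 0.19, adjusted p = 0.0236) and from 7 to 0. Tgfa lost its fl/fl call there at 0.39 ± 0.13 (adjusted p = 0.0722). Over all genes the counts went from 5044 to 715 higher and 358 lower and from 6692 to 595 and 425. With the squamous mean as a covariate the count after AOM+DSS was 3 in fl/fl colon, and in knockout colon Erbb2 (adjusted p = 0.0816) and Erbb3 (adjusted p = 0.177) lost their calls. Neutrophil markers were higher after AOM+DSS in 7 of 8 (fl/fl) and 8 of 8 cases (knockout). The part of these cell types in the members' changes was not tested, since a covariate that differs between groups takes up group differences of any kind.

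Knockout and fl/fl mice differed past the threshold in none of the 9 members, in untreated colon, after AOM+DSS, in tumors or on the mean of the 3 conditions, where limma called 0.00451%, 0.541%, 0.00902% and 0.108% of all genes. On the mean of the 3 conditions these were 0.0316% higher and 0.0766% lower. At an unadjusted p under 0.05, 1, 2, 1 and 1 members differed. Neither interaction called any gene (0%), with 1 and 2 members under 0.05 before adjustment. Nrg1 had the smallest p of the members in untreated colon, after AOM+DSS and on the mean of the 3 conditions, and Egfr in tumors and in both interactions. In untreated colon it differed by 0.54 ± 0.16, or 1.46-fold (95% interval 0.22 to 0.86, p = 0.00119, adjusted p = 0.539), and the highest fl/fl sample (7.99) lay below all but 1 knockout sample. After AOM+DSS it differed by 0.61 ± 0.16, or 1.53-fold (95% interval 0.29 to 0.93, p = 0.000315, adjusted p = 0.0514), with ranges that overlapped. In tumors the difference was 0.06 ± 0.17 (95% interval -0.29 to 0.40). On the mean of the 3 conditions it was 0.40 ± 0.094 (p = 7.81e-05, adjusted p = 0.0577).

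In untreated colon Nrg1 passed only with the untreated groups fitted alone, at 0.54 ± 0.096 (adjusted p = 0.0416), and its adjusted p lay between 0.147 and 0.626 under the other alternatives that keep all arrays. After AOM+DSS the adjusted p over the alternatives ran from 0.0256 with array weights to 0.573 with the fibroblast mean as a covariate, under which the difference was 0.42 ± 0.16. Leaving out single arrays gave adjusted p between 0.00223 and 0.176, and 7 of 20 such fits passed (without AOM+DSS knockout replicate 2, 3 or 10 or fl/fl replicate 4, 7, 9 or 10). Beside this, fibroblast markers averaged 10.59 in fl/fl and 10.85 in knockout colon after AOM+DSS and neutrophil markers 7.38 and 7.91. B cell markers averaged 7.62 and 8.34 and T cell markers 7.16 and 7.56 in the same groups. Other lists ran the other way, such as smooth muscle (11.40 and 11.23) and distal colon surface (12.06 and 11.82). The part of any of these was not tested. Of the genes past the threshold between genotypes after AOM+DSS, 93 were higher and 27 lower in knockout colon, and 24 and 21 once all arrays were shifted to 1 median. Egfr differed by 0.15 ± 0.066 after AOM+DSS (p = 0.0312, adjusted p = 0.31) and by -0.17 ± 0.072 in tumors (p = 0.0256, adjusted p = 1). For the other 7 members the genotype differences lay between -0.12 and 0.39 in the 3 conditions, and the widest 95% interval, that of Ereg in tumors, ran from -0.40 to 0.74.

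Within groups, Ereg, Hbegf and Nrg1 varied together, Erbb2, Erbb3 and Egf varied together, and the first 3 ran against Erbb3. Correlations were taken over 57 arrays after removal of the group means, with 100000 permutations within groups and adjustment over 162 pairs, 36 of them between members. Of those 36, 15 passed an adjusted p of 0.05, 9 above 0 and 6 below. Erbb2 and Erbb3 had the highest value, r = 0.79 and rho = 0.75 (permutation p = 1.0e-05, the smallest that 100000 permutations give, adjusted p = 5.4e-04), with r = 0.74 without the 2 arrays farthest from the median and r above 0 in 5 of the 6 groups. Ereg went with Hbegf at r = 0.59 (rho = 0.62, permutation adjusted p = 5.4e-04) and with Nrg1 at r = 0.56 (rho = 0.57, permutation adjusted p = 9.7e-04), each above 0 in all 6 groups. Against Erbb3, Ereg stood at r = -0.63 (rho = -0.58, permutation adjusted p = 5.4e-04), below 0 in all 6 groups, and Nrg1 at r = -0.60 (rho = -0.54, permutation adjusted p = 8.1e-04), below 0 in 5. Egf sided with Erbb2 and Erbb3, with r = 0.48 to Erbb2 (rho = 0.48, permutation adjusted p = 0.0115) and r = -0.40 to Nrg1 (rho = -0.42, permutation adjusted p = 0.0402). With Egfr it stood at r = -0.21 (rho = -0.23, permutation adjusted p = 0.289). Tgfa, Egfr and Btc had few partners among the members. Tgfa and Egfr each passed with Nrg1 alone (r = 0.34 and 0.40), and Btc with Ereg alone (r = 0.40). The arrays of a group share one normalization and each a mixture of cells, and the values describe these samples.

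**Figure D4:**
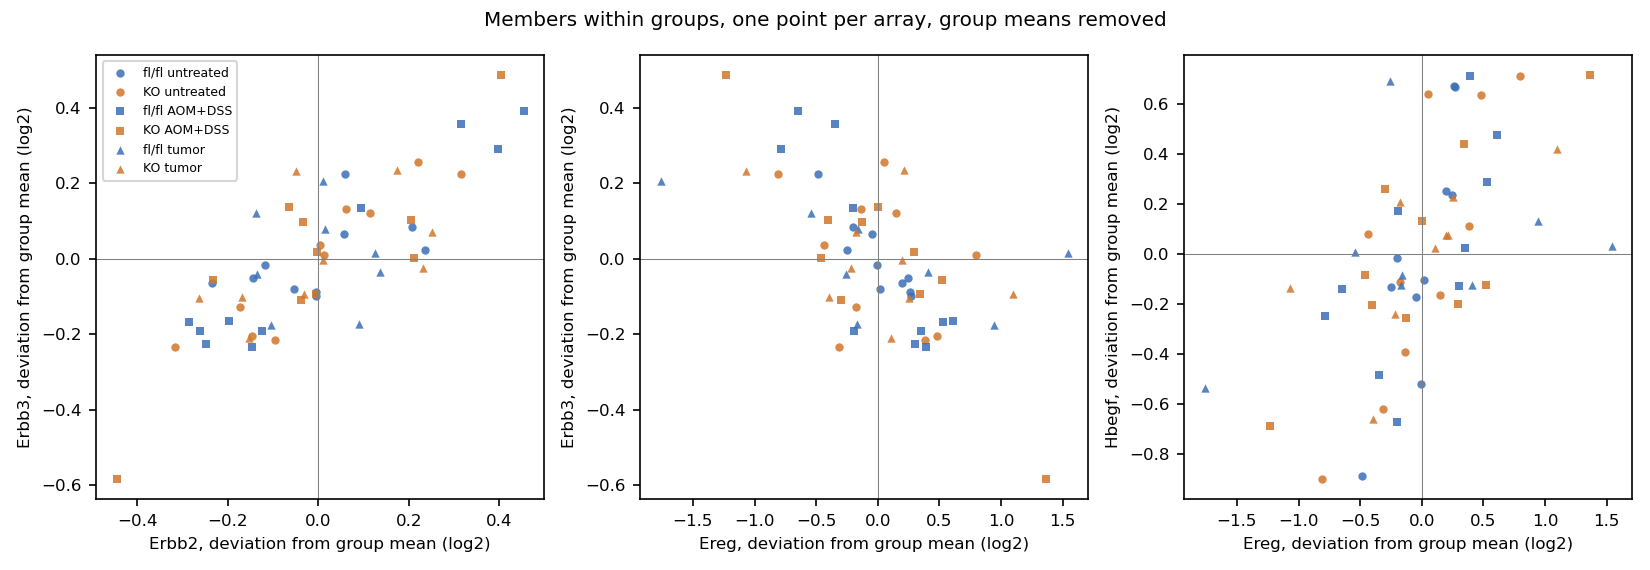
Deviation of each array from its group mean (log2) for Erbb3 against Erbb2, Erbb3 against Ereg and Hbegf against Ereg, coloured by genotype and shaped by condition. The points rise together for Erbb2 and Erbb3 (r = 0.79) and for Ereg and Hbegf (r = 0.59) and run opposite for Ereg and Erbb3 (r = -0.63).

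In AOM+DSS knockout colon 2 samples stood at opposite ends of the group in most members. Replicate 6 was the highest of its group in Ereg (10.67), Hbegf (9.34) and Nrg1 (10.02) and the lowest in Egf (5.36), Erbb2 (8.85) and Erbb3 (10.18), with a neutrophil mean of 8.73 against a group median of 7.94. Replicate 2 was the reverse, lowest in Ereg (8.07) and Hbegf (7.94) and highest in Egf (6.06), Erbb2 (9.70) and Erbb3 (11.25), with a neutrophil mean of 6.43, the lowest of the group, and a squamous mean of 5.50. The highest neutrophil mean of the group was that of replicate 7 (8.86), which was neither highest nor lowest in any member. Without replicate 6 the knockout count of members that changed after AOM+DSS was 6, Erbb3 being lost, and without replicate 2 it was 7. In untreated colon, fl/fl replicate 7 and knockout replicate 1 were each the lowest of their group in Egfr, Ereg, Hbegf and Nrg1.

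Members also varied within groups with marker lists. Nrg1 rose with the neutrophil mean at r = 0.56 (rho = 0.46, permutation adjusted p = 0.00486) and Ereg at r = 0.45 (rho = 0.40, permutation adjusted p = 0.0251), while Erbb3 ran against it at r = -0.52 (rho = -0.40, permutation adjusted p = 0.0103). Nrg1 also followed the mean of 8 Wnt target genes of tumor epithelium (r = 0.51, rho = 0.36, permutation adjusted p = 0.0122) and 7 endothelial markers (r = 0.48, rho = 0.42, permutation adjusted p = 0.0243), the latter falling to r = 0.27 without the 2 arrays farthest from the median. Erbb2 followed the epithelial mean (r = 0.47, rho = 0.43, permutation adjusted p = 0.0136), with r above 0 in 4 of the 6 groups. It ran against the Paneth-type mean (r = -0.47, rho = -0.38, permutation adjusted p = 0.0136), with r below 0 in all 6 groups. Egfr followed 6 markers of enteric glia and neurons (r = 0.44, rho = 0.35, permutation adjusted p = 0.0136). Further pairs passed, among them Egf with the fibroblast mean (r = -0.41, rho = -0.40, permutation adjusted p = 0.0243) and Tgfa with the Wnt targets (r = 0.35, rho = 0.37, permutation adjusted p = 0.0436). By rho, Nrg1 with the Wnt targets and Egfr with the glial and neuronal markers did not pass (permutation adjusted p = 0.0616 and 0.07). For Nrg1 and neutrophil markers r was above 0 in 4 of the 6 groups, between -0.24 and 0.83.

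**Figure D5:**
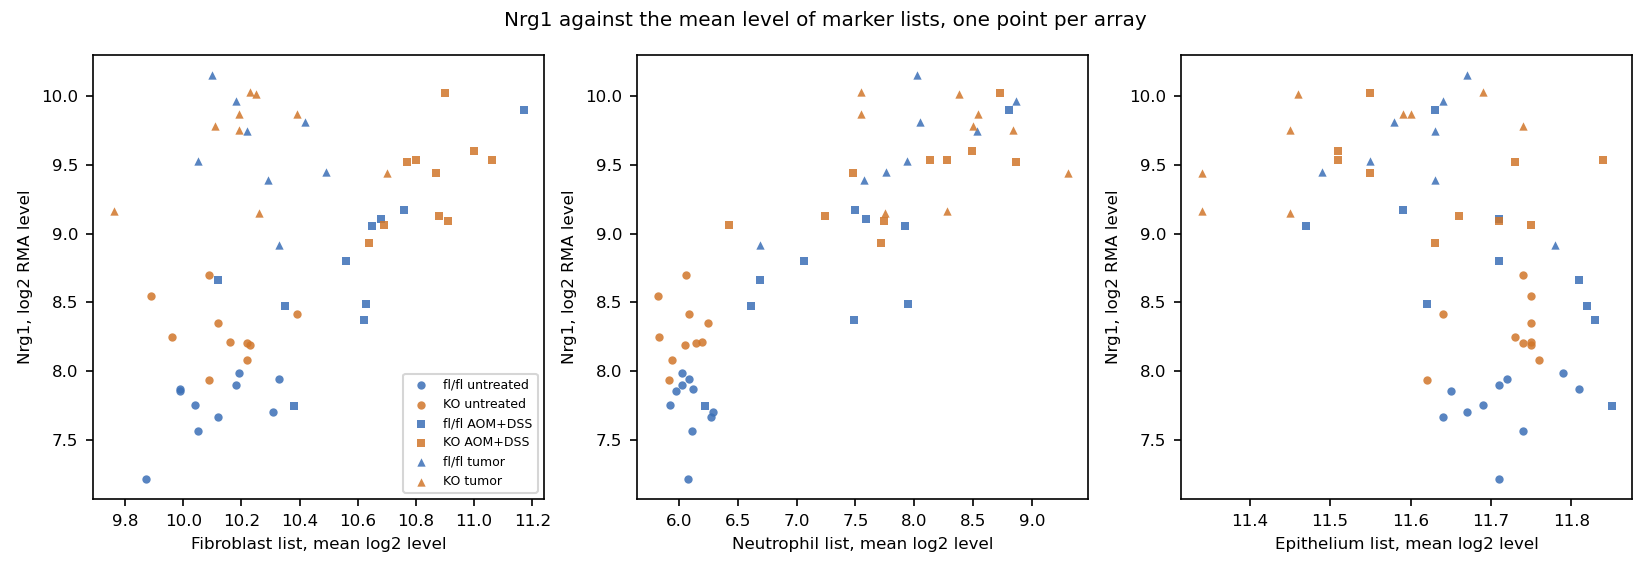
Nrg1 log2 RMA level (y axis) against the mean log2 level of the fibroblast, neutrophil and epithelial marker lists (x axes), 1 point per array, coloured by genotype and shaped by condition. Tumors lie high on the Nrg1 axis, together with some AOM+DSS colon, and AOM+DSS colon spreads along both axes. Fibroblast means of tumors lie a little above those of untreated colon (10.26 against 10.11 in fl/fl mice). Of the 8 fibroblast markers 5 were higher and 1 lower in tumors of each genotype than in untreated colon.

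The 3 genes most like each member within groups, among all genes, are given as a description over 57 arrays. Ereg was most like Ptgs2, which encodes cyclooxygenase 2 (r = 0.78), the cytokine Il11 (r = 0.72) and the ERK inhibitor Spry4 (r = 0.71). Hbegf was most like Fos (r = 0.74), Epha2 (r = 0.69) and Spry4 (r = 0.68), and Nrg1 like Lpcat4 (r = 0.70), Samd5 (r = 0.70) and the cytokine signalling inhibitor Socs3 (r = 0.68). Erbb2 was nearest Limk2 (r = 0.83), Khnyn (r = 0.82) and Wwp2 (r = 0.81), and Erbb3 had Vwa8, Erbb2 and Adcy6 (r = 0.79 each). Tgfa was nearest Csf2ra (r = 0.67), Cpsf7 (r = 0.66) and Rfng (r = 0.64), Egfr nearest Ssh2 (r = 0.62), Clca3a2 (r = 0.60) and Ermp1 (r = 0.57), Btc nearest AI597479 (r = 0.68), Get1 (r = 0.61) and Hs2st1 (r = 0.61), and Egf nearest Fam20b (r = 0.67), Thap4 (r = 0.66) and Ap4m1 (r = 0.65).

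The 10 sheddases and their partners include Rhbdf1, Rhbdf2 and the inhibitor Timp3, which do not cut the ligands themselves. Their counts therefore give no direction of ligand release. Of these 10 genes, 7 were higher and 2 lower in fl/fl tumors than in untreated colon. In knockout tumors 6 were higher and 1 lower. Of all genes, 45.4% in fl/fl and 47.3% in knockout tumors passed in either direction. After AOM+DSS 5 were higher in fl/fl and 6 in knockout colon and none was lower (22.7% and 30.2% of all genes passed), and between tumor and AOM+DSS colon 6 were higher and 2 lower in each genotype (41.2% and 42.9%). The metalloprotease Adam8 rose by 2.81 ± 0.19 and 2.98 ± 0.19 in fl/fl and knockout tumors, Adam12 by 1.77 ± 0.13 and 2.11 ± 0.13, and Adam10, which releases Egf and Btc, by 0.84 ± 0.048 and 0.94 ± 0.046. Adam17, the main sheddase of Tgfa, Ereg and Hbegf, rose by 0.61 ± 0.071 and 0.68 ± 0.069 in tumors, and after AOM+DSS by 0.32 ± 0.067 in fl/fl and 0.45 ± 0.067 in knockout colon. The intramembrane protease Rhbdl2 fell by 1.34 ± 0.12 and 1.30 ± 0.12 in tumors. Among 5 other ligands and receptors, Epgn (epigen) rose after AOM+DSS by 0.37 ± 0.10 in fl/fl and 0.35 ± 0.10 in knockout colon, and in tumors against untreated colon Nrg3 fell by 0.21 ± 0.076 and 0.18 ± 0.074.

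Downstream of the receptors, 3 of 12 measured adaptors and kinases were higher and 3 lower in tumors of each genotype than in untreated colon, a share near the 45.4% and 47.3% of all genes that passed. After AOM+DSS 1 was higher and 1 lower in fl/fl and 2 and 2 in knockout colon, beside 22.7% and 30.2% of all genes. Nras rose by 0.59 ± 0.05 and 0.59 ± 0.048, and Map2k1, which encodes the kinase MEK1, fell by 0.86 ± 0.076 and 0.72 ± 0.074. Of 16 genes listed as feedback inhibitors, 5 were higher and 5 lower in fl/fl and 4 and 5 in knockout tumors. This stood beside the same 45.4% and 47.3% of all genes, split about evenly by direction. After AOM+DSS 4 were higher and 2 lower in fl/fl and 5 and 3 in knockout colon, beside 22.7% and 30.2% of all genes. The ERK phosphatase Dusp4 rose by 2.33 ± 0.12 and 2.14 ± 0.12 in tumors, Socs3 by 1.73 ± 0.16 and 1.67 ± 0.16, and Lrig3 and Lrig1, of the family of ErbB inhibitors with leucine-rich repeats, fell by 1.85 ± 0.095 and 1.87 ± 0.092 and by 0.67 ± 0.089 and 0.58 ± 0.086. Of 15 measured genes known to respond to ERK, 9 were higher in tumors of either genotype, with 1 lower in fl/fl and 2 in knockout tumors. Over all genes 22.9% were higher and 22.5% lower in fl/fl tumors, and 23.6% and 23.7% in knockout tumors. After AOM+DSS 5 of these 15 genes were higher and 3 lower in fl/fl and 6 and 3 in knockout colon. Over all genes 12.2% were higher and 10.5% lower in fl/fl, and 16% and 14.2% in knockout colon. Of the 15, Fosb rose by 0.85 and 0.52 and Plaur by 0.81 and 0.73 after AOM+DSS. In tumors Ier3 rose by 2.34 ± 0.17 and 2.38 ± 0.16, Phlda1 by 2.25 ± 0.13 and 2.15 ± 0.12 and Etv5 by 2.25 ± 0.17 and 1.80 ± 0.16, whereas the related Etv4 fell by 0.32 ± 0.087 and 0.38 ± 0.084. Their median changes were 0.38 and 0.36, beside -0.034 and -0.035 over all genes. Between genotypes, none of the genes of these 5 lists passed in any single condition, and on the mean of the 3 conditions Socs3 alone did, at 0.42 ± 0.092 higher in knockout mice (adjusted p = 0.0454).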

How the data were processed

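The data were 57 Affymetrix microarrays of mouse distal colon, 1 array per sample. The deposited values are log2 levels per probe set, made by the authors with robust multi-array averaging (RMA) per the submitters' processing notes, and its version is not given in the sources used here. Such values compress the folds of dim probe sets and carry no read depth; precision rests on 8 to 10 arrays a group. Of 41345 probe sets, 25335 were named in the platform annotation, 23521 with a single symbol, which gave 22180 genes at their brightest probe set. Groups came from sample titles. All 57 arrays entered 1 limma fit (version 3.58.1, R 4.3.3) with 6 group means and empirical Bayes moderation. Its tests were two-sided, adjusted by Benjamini-Hochberg over all genes, with 0.05 as the threshold, and 12 comparisons were made. All measured members were named, from each pathway list at most 4 genes in each direction with the largest changes past the threshold, and for each member the 3 genes with the highest within-group r, leaving out predicted models, small RNAs and receptor or immunoglobulin segments. The members and lists were chosen with earlier results of these data known. Within-group correlations used permutations within groups. The labels do not say which samples share a mouse, cage or day. The limma p-values set group differences against the spread between these samples, and samples that share a mouse would not be independent. The fits and correlations were tested on simulated data. Same-numbered arrays of different groups correlated with a median r of 0.05 (-0.331 to 0.33 over 136 pairs). These pairs pool all groups, including groups that cannot share a mouse, so the value cannot tell whether tumors and AOM+DSS colon do. The replicate numbers were not taken as pairs, and the tests treat all samples as independent.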

Additional observations from a re-analysis of the deposited data

Results flagged for a closer look

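In 2 of 54 sets of values (9 members in 6 groups) a single array stood apart from its group by Dixon's criterion, and chance alone marks about 1 in 20 sets. Both sets were of Egfr. Replicate 7 of untreated fl/fl colon was the lowest at 8.89, where the other 9 lay between 9.26 and 9.55, a gap of 0.551 of the group's range. Replicate 4 of AOM+DSS fl/fl colon was the highest at 9.71, where the other 9 lay between 9.40 and 9.56, a gap of 0.477 of the range.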

How the results depend on the processing

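Under the settings other than a covariate or a left-out array, 320 member values past the threshold kept their direction and their side of it, and 2 did not. Those were Erbb3 after AOM+DSS in knockout colon (adjusted p = 0.0688) and Egf between tumor and AOM+DSS colon in fl/fl mice (adjusted p = 0.0814), both with the compared groups fitted alone. With the smooth muscle mean as a covariate 16 of 41 such values held and 25 did not, with the squamous mean 37 and 4, and with the fibroblast mean, added after seeing the data, 30 and 11. The members past the threshold after AOM+DSS went from 5 to 3 (squamous) and 1 (fibroblast) in fl/fl and from 7 to 0 (fibroblast) in knockout colon, where the squamous covariate also ended the calls of Erbb2 and Erbb3 and the smooth muscle covariate that of Erbb3 (adjusted p = 0.0751). The fibroblast covariate brought Nrg1 past the threshold between tumor and AOM+DSS colon in knockout mice (0.74, adjusted p = 0.00545). With the smooth muscle mean they went to 0 in both genotypes for tumor against AOM+DSS colon, and to 4 in fl/fl and 1 in knockout mice for tumor against untreated colon. Between genotypes the count went from 0 to 1, Nrg1, in untreated colon with the groups fitted alone. It did so after AOM+DSS with further quantile normalization, dim genes removed, array weights or the squamous covariate, and on the mean of the 3 conditions with the last 3 of these. The cause was not tested.

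Values that changed sign were past the threshold in neither setting. With the smooth muscle covariate these were Ereg between tumor and AOM+DSS colon (-0.25 in fl/fl, -0.45 in knockout mice), Nrg1 in the same comparison in knockout mice (-0.11) and Erbb3 between genotypes in tumors (0.02). With arrays shifted to 1 median they were Egf between genotypes in untreated colon (0.01), Erbb3 after AOM+DSS (-0.02) and the interactions of Btc and Erbb3 in tumors (0.01 each). With array weights they were Erbb3 between genotypes in tumors (0.02) and its interaction (0.01), and with quantile normalization Tgfa on the mean of the 3 conditions (-0.01). With the fibroblast covariate they were Egf between genotypes in untreated colon (0.01) and after AOM+DSS (0.04), the AOM+DSS interactions of Egf (0.03) and Nrg1 (-0.10) and the tumor interaction of Btc (0.04). The cause was not tested.

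Leaving out 1 array at a time, the counts ran from 5 to 6 and from 6 to 7 after AOM+DSS in fl/fl and knockout colon, from 6 to 7 and at 5 for tumor against AOM+DSS colon, and from 8 to 9 and at 8 for tumor against untreated colon. Between genotypes they stayed at 0 in untreated colon, in tumors and for both interactions, and ran from 0 to 1 after AOM+DSS and on the mean of the 3 conditions. In the last, Nrg1 passed without any of 10 single arrays, with an adjusted p between 0.00765 and 0.12 over 57 such fits. With the replicate number as a block the counts were 5, 7, 7, 5, 9 and 8 for the treatment and tumor comparisons and 0 for all genotype comparisons, so the block changed no call. Of the 136 same-numbered pairs 41 correlated above 0.1, and 5 of 57 arrays correlated best with their own number. The arrays shifted to 1 median moved the split of all genes after AOM+DSS in fl/fl colon from 2715 higher and 2329 lower to 3373 and 1254. Of the 36 correlations between members, 15 passed by Spearman's rho and 13 after that shift.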
